A study of Saccharomyces cerevisiae with 8 samples.

Results

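Tags that start inside introns of protein-coding genes of the budding yeast Saccharomyces cerevisiae are described here. A tag is the 5' end of a sequenced RNA molecule, counted at 1 base and strand of the genome. The positions were chosen by coordinates alone: those on the gene strand within introns that lie between coding segments of nuclear protein-coding genes in the R64 annotation, outside small nucleolar RNA genes and without the genes that need a ribosomal frameshift. This gave 7810 of the 1643818 positions in the table, in 251 of 281 introns. These introns belong to 271 genes, 10 of which have 2 introns, and the other 30 introns had no tag in any library.

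The study compared enzymes that remove the cap before an adapter is ligated to the 5' end. RNA came from BY4741, a laboratory strain of mating type Mat a that carries his3delta1, leu2delta0, ura3delta0 and met15delta0 in all groups, grown in rich medium at 30 °C to mid-log phase, from 2 biological replicates. All groups were first treated with calf intestinal phosphatase, which removes exposed 5' phosphates, and each replicate was then divided into 4 aliquots that received Cap-Clip, Tobacco Acid Pyrophosphatase (TAP), Decapping Pyrophosphohydrolase, or nothing (the no-enzyme control). The 4 groups therefore hold 2 libraries each, numbered 1 and 2. Polyadenylated RNA was selected after ligation, so nuclear precursors and decay products enter only as far as they carry a poly(A) tail. Fewer molecules with a given 5' end and a lower yield of such ends in ligation cannot be told apart in these bulk libraries, and p-values measure the spread between libraries.

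An intron is removed from the primary transcript by the spliceosome, which recognises the 5' splice site at its start, the branch site inside it and the AG at its end. The first step of splicing joins the intron's first base to the branch site as a lariat, and the second step joins the exons. Most yeast genes have no intron, and genes for ribosomal proteins hold many of those that exist. A transcript can also begin inside an intron, when transcription starts there, and such an RNA carries a cap at that base. Small nucleolar RNAs that lie in introns are trimmed out of the excised intron and have no cap.

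The introns had a median length of 141 nt, between 49 and 1002 nt. GTATGT stood at the start of 205 of them (73.0%), TACTAAC occurred in 232 (82.6%), and 278 (98.9%) ended in AG. HAC1, whose 252-nt intron is cut by Ire1 and joined by tRNA ligase and not by the spliceosome, was kept. Ribosomal protein genes held 91 of the introns.

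Most intron tags of the enzyme-treated libraries lay at 1 base near the end of an intron, and the place of that base was tied to the letters around the splice junction. The sequences of 6 genes are shown because they carry this pattern, all from the R64 reference and in the sense of the transcript. For each gene the first line holds the last 18 bases of the exon before the intron. The second holds the last 18 bases of the intron followed by 18 bases of the next exon. Capitals mark the letters that the end of the exon and the end of the intron share, counted back from the junction.
RPS17A exon end, chrXIII:225874-225891, plus strand: actagcaataacaaaatG
RPS17A intron end, chrXIII:226272-226307, plus strand: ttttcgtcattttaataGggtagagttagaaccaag
RPS27A exon end, chrXI:158598-158615, plus strand: gatagatatcccaaaatG
RPS27A intron end, chrXI:158949-158984, plus strand: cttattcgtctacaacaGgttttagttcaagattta
RPL36A exon end, chrXIII:651143-651160, plus strand: aaatgaccgttaagacAG
RPL36A intron end, chrXIII:651606-651641, plus strand: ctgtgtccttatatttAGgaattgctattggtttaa
RPL26B exon end, chrVII:555813-555830, plus strand: tggctaagcaatctcTAG
RPL26B intron end, chrVII:556290-556325, plus strand: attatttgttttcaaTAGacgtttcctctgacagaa
RPL26A exon end, chrXII:819313-819330, plus strand: tggctaaacaatcaTTAG
RPL26A intron end, chrXII:819760-819795, plus strand: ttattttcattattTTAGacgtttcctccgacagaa
RPL43A exon end, chrXVI:654150-654167, plus strand: gacaactgagacaaaaat
RPL43A intron end, chrXVI:654553-654588, plus strand: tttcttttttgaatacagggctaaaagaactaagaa

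Starts elsewhere in introns were fewer and had other surroundings. The sites below were printed because they are the fullest base of APE2, a site in GCR1, a base near the intron start of RPL36A, and the bases just before a small nucleolar RNA in RPS22B and ASC1. The capital marks the first base of the tags.
APE2 base 273 of the intron, chrXI:155524-155564, plus strand: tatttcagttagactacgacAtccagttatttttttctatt
GCR1 base 32 of the intron, chrXVI:412273-412313, plus strand: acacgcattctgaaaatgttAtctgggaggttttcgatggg
RPL36A base 3 of the intron, chrXIII:651143-651183, plus strand: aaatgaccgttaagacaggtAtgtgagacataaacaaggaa
RPS22B base 135 of the intron, chrXII:856689-856729, plus strand: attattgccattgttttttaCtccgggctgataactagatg
ASC1 base 79 of the intron, chrXIII:500053-500093, minus strand: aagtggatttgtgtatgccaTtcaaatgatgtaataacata

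The libraries held between 1268757 and 10739034 tags with an enzyme, and 736236 and 80721 tags in no enzyme 1 and 2. The 2 no-enzyme libraries stood apart from each other. In no enzyme 1, 13.3% of tags lay in 5' regions (the 200 nt upstream of the start codon and the first 50 coding nt) and 78.7% in coding exons, against 71.2% and 23.7% in no enzyme 2. With an enzyme, 5' regions held between 88% and 90.3%. Levels are given as CPM, tags per 1000000 tags of the library, and 1 tag of no enzyme 2 is worth 12.4 CPM. No enzyme 2 held only 227 tags in introns. Results against no enzyme therefore rest mainly on no enzyme 1, and the counts without each of these libraries stand beside them.

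Introns held a small share of each library. The share was 0.242% and 0.208% with TAP, 0.25% and 0.228% with Cap-Clip, 0.34% and 0.296% with Decapping Pyrophosphohydrolase, and 0.447% and 0.281% with no enzyme. The 95% Wilson intervals of the no-enzyme libraries were 0.432 to 0.463% and 0.247 to 0.32%, which cover counting error only. The values of TAP and Cap-Clip lay below both no-enzyme values, while those of Decapping Pyrophosphohydrolase lay between them. The differences from no enzyme were -0.139 percentage points for TAP, -0.125 for Cap-Clip and -0.0465 for Decapping Pyrophosphohydrolase, with exact permutation p-values of 0.33, 0.33 and 1 (2-sided, 2 libraries against 2, where 0.33 is the smallest p possible). Decapping Pyrophosphohydrolase exceeded TAP by 0.0927 points and Cap-Clip by 0.0787 points (exact permutation p = 0.33 each), with no overlap between the libraries. Without the first 10 and last 10 nt of each intron these last differences were -0.00592 and -0.00571 points.

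The tags were unevenly spread over the introns. The 12 fullest introns held 64.6% of the intron tags of the enzyme-treated libraries, and 86 introns had at least 100 tags over the 8 libraries. The median intron had 30 tags in all. Of the 12 fullest, 11 belonged to ribosomal protein genes and the twelfth to APE2, an aminopeptidase gene.

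The place of the tags within introns differed between libraries. The last 10 nt held 56.98% and 57.9% of intron tags with TAP, 63.8% and 56.1% with Cap-Clip, 75.0% and 73.3% with Decapping Pyrophosphohydrolase, and 22.0% and 60.8% with no enzyme. Only no enzyme 1 was low, and no enzyme 2 lay within the range of TAP and Cap-Clip. The interior held 19.6 to 32.35% of intron tags in the 6 enzyme-treated libraries, against 73.5% in no enzyme 1 and 34.4% in no enzyme 2. The first 10 nt held 5.43 to 11.6% with an enzyme, and 4.46% and 4.85% with no enzyme. The interior had 761 and 639 CPM with TAP, 658 and 738 with Cap-Clip, 667 and 615 with Decapping Pyrophosphohydrolase, and 3287 and 966 with no enzyme, and the enzymes overlapped. The last 10 nt had 2547 and 2166 CPM with Decapping Pyrophosphohydrolase, above the 1594 and 1279 with Cap-Clip and the 1381 and 1201 with TAP, and no enzyme had 985 and 1710.

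**Figure D1:**
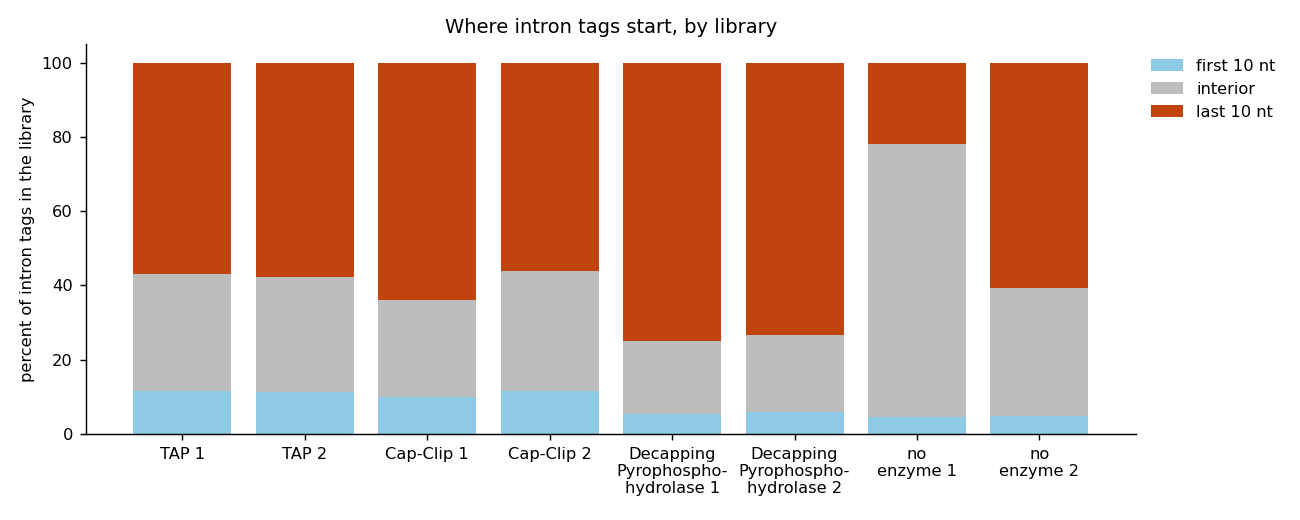
Share of intron tags in the first 10 nt, the interior and the last 10 nt of introns, in percent of the intron tags of each library, for 2 libraries of each group. The last 10 nt hold over 56% in all libraries except no enzyme 1, at 22.0%, where the interior holds 73.5%.

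Within the last 10 nt nearly all tags lay at a single base per intron. For each intron the number of letters shared by the end of the exon before it and the end of the intron was counted back from the junction. The base at the edge of these shared letters held 98.6% and 98.5% of the tags of the last 10 nt with TAP, 98.9% and 98.4% with Cap-Clip, and 99.3% and 98.9% with Decapping Pyrophosphohydrolase. With no enzyme it held 79.2% and 93.5%. This base alone held 55.2 to 74.4% of all intron tags with an enzyme, and 17.4% and 56.8% with no enzyme. A read that starts at such a base and runs into the next exon has the same letters whether it comes from spliced or unspliced RNA. The 2 cannot be told apart from the count, and how reads across junctions were placed is not given in the sources used here. The part of spliced RNA in these tags was not tested.

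The tie between shared letters and the fullest base held over introns with different numbers of shared letters. Among the bases from 12 before to 7 after the first base of the next exon, 57 introns had a fullest base of at least 2 CPM on average over the enzyme-treated libraries, a limit chosen after the values were seen. In 49 of the 57 this base was the one at the shared edge. With no shared letter it was the first base of the next exon in 26 of 29 introns. With 1 shared letter it was the last base of the intron in 16 of 21, with 2 letters the second-last in 4 of 4, with 3 letters the third-last in 2 of 2, and with 4 letters the fourth-last in 1 of 1. Most of the 57 introns belong to ribosomal protein genes, and all those with 2, 3 or 4 shared letters do. In all, 109 of the 281 introns share at least 1 letter, and the 172 others have their corresponding base in the exon and so outside the intron.

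**Figure D2:**
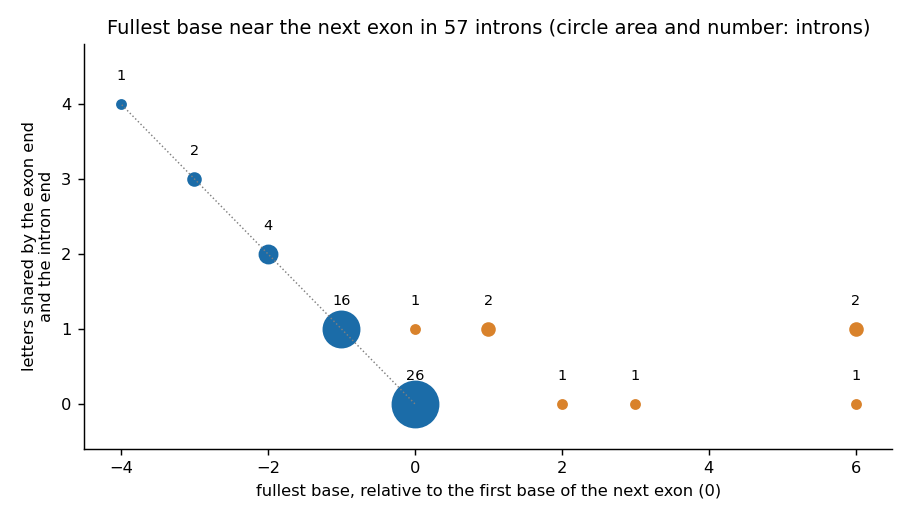
Number of shared letters (y) and fullest base relative to the first base of the next exon (x, where 0 is that exon base and negative values lie in the intron) in 57 introns. Circle area and number give introns, blue circles lie on the dotted line where both agree (49 introns) and orange circles do not (8 introns).

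The fullest introns show this base by base. RPS17A, which encodes a small-subunit ribosomal protein, shares 1 letter, and its last intron base (chrXIII:226289) had 559 and 541 CPM with TAP, 690 and 499 with Cap-Clip, 872 and 611 with Decapping Pyrophosphohydrolase, and 25.8 and 421 with no enzyme. RPS27A, also of the small subunit, had 264 and 238 CPM at its last intron base (chrXI:158966) with TAP, 330 and 262 with Cap-Clip, 575 and 577 with Decapping Pyrophosphohydrolase, and 27.2 and 297 with no enzyme. In both genes no enzyme 1 was far below every other library, while no enzyme 2 lay below the enzyme-treated libraries in RPS17A and among them in RPS27A. Neither base was called against no enzyme.

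The genes with longer shared runs had their pile farther inside the intron. RPL36A, of the large subunit, shares AG and had its pile at the second-last base (chrXIII:651622), with 33.8 and 21.8 CPM with TAP, 32.3 and 29.5 with Cap-Clip, 44.7 and 42.8 with Decapping Pyrophosphohydrolase, and 31.2 and 24.8 with no enzyme. RPL26B shares TAG and had 34.2 and 30.9 CPM with TAP, 33.9 and 33.4 with Cap-Clip, 35.8 and 26.4 with Decapping Pyrophosphohydrolase, and 28.5 and 37.2 with no enzyme at its third-last base (chrVII:556305). These 2 bases did not separate the no-enzyme libraries from the others. The paralog RPL26A shares TTAG, and its fourth-last base (chrXII:819774) had 13.8 and 16.03 CPM with TAP, 12.6 and 13.9 with Cap-Clip, 28.5 and 31.9 with Decapping Pyrophosphohydrolase, and 2.72 and 0 with no enzyme. That base passed the filter on low counts through the enzyme-treated libraries alone, so no test is given for it. The exons after these introns are alike between paralogs, so reads from them may be divided between copies.

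Genes with no shared letter had a pile of the same kind just outside the intron. RPL43A, of the large subunit, had 1044 and 1176 CPM with TAP, 1251 and 1026 with Cap-Clip, 1067 and 1170 with Decapping Pyrophosphohydrolase, and 99.2 and 855 with no enzyme at the first base of its second exon. RPL19B and RPL37A followed, with means of 415 and 213 CPM over the enzyme-treated libraries. Over the 26 introns of this kind the piles summed to 1967 and 1869 CPM with TAP, 2251 and 1929 with Cap-Clip, 2713 and 2874 with Decapping Pyrophosphohydrolase, and 732 and 1982 with no enzyme. Over the 23 introns with shared letters they summed to 1350 and 1174 CPM with TAP, 1561 and 1246 with Cap-Clip, 2507 and 2119 with Decapping Pyrophosphohydrolase, and 641 and 1561 with no enzyme.

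The distance from the gene's fullest start to the intron moved with the piles. Among 214 first introns of genes with at least 20 CPM in the 5' region, 54 had the fullest start at most 36 nt before the intron, and 27 of these had at least 2 CPM at the shared edge. Beyond 36 and up to 80 nt it was 18 of 93, and beyond 80 nt 3 of 67. After the 8-nt barcode a read of 50 nt leaves 42 nt, so a read that starts within that distance crosses the junction. Its part in the piles was not tested. Relative to the 5' region of the gene, the pile was 37.6% in RPS17A, 120% in RPS27A, 27.2% in RPL35A and 35.5% in RPL43A, but 0.513% in RPL26B, which had 6326 CPM in its 5' region.

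Part of the differences between enzymes lay at the same bases. No intron of 87 tested was called between Cap-Clip and TAP (edgeR quasi-likelihood test with TMM scaling, Benjamini-Hochberg adjusted p under 0.05 over 8858 features, of which 0.0226% were called, all of them higher). At an unadjusted p under 0.05 there were 5 introns, and DESeq2 called 0. Between Decapping Pyrophosphohydrolase and TAP, 20 introns were higher and 5 lower, where 23.9% and 22.7% of all features were called higher and lower (46.6% in all). Between Decapping Pyrophosphohydrolase and Cap-Clip, 19 were higher and 4 lower, beside 16.9% and 18.2% of all features (35.1% in all). With library totals in place of TMM the counts were 12 higher and 18 lower against TAP, and 11 higher and 15 lower against Cap-Clip, so the split between higher and lower depends on the scaling. Over all 8858 features they were then 983 and 3170 against TAP, and 643 and 2740 against Cap-Clip. The median fold change of the tested introns was 0.28 (log2) against TAP with TMM and -0.13 with library totals.

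Of the 20 introns that rose against TAP, 18 belonged to ribosomal protein genes, which held 63 of the 87 tested, but with library totals 12 introns of these genes were higher and 11 lower. RPL25, of the large subunit, had 125 and 133 CPM with Decapping Pyrophosphohydrolase, against 33.7 and 24.04 with TAP and 40.98 and 32.3 with Cap-Clip. Its log2 fold change was 2.49 ± 0.18 for Decapping Pyrophosphohydrolase against TAP (SE, edgeR adjusted p = 5.45e-10) and 2.24 ± 0.18 against Cap-Clip (adjusted p = 8.67e-09). Without the last 10 nt it was 0.13 and -0.02. RPL42A, also of the large subunit, had 115 and 101 CPM with Decapping Pyrophosphohydrolase against 36.04 and 28.6 with TAP, a log2 fold change of 2.08 ± 0.16 (adjusted p = 2.45e-09) that was 0.03 without the last 10 nt. RPS24A had 214 and 222 CPM with Decapping Pyrophosphohydrolase against 83.4 and 63.5 with TAP, a log2 fold change of 1.93 ± 0.17 (adjusted p = 8.06e-09) that was -0.0009 without the last 10 nt. In these 3 introns the libraries of the 2 enzymes did not overlap. RPL42A and RPS24A have near copies, RPL42B and RPS24B, so reads may be divided between them.

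The last base of RPS24B had 12.3 and 11.2 CPM with Decapping Pyrophosphohydrolase (22 and 39 tags), 0 and 0 with Cap-Clip, and 0.186 and 0 with TAP (2 and 0 tags). It had no tag with no enzyme. The first base of the next exon in RPL40A and RPL40B, which are near copies and were chosen after values were seen, was also higher with this enzyme, without a test. It had 65.4 and 45.98 CPM in RPL40A with Decapping Pyrophosphohydrolase against 1.49 and 0.572 with TAP, and 87.7 and 54.3 in RPL40B against 0.0931 and 0. RPS17A (log2 fold change 0.79 ± 0.21, adjusted p = 0.00383, and 0.0698 with library totals) and RPS27A (1.5 ± 0.18, adjusted p = 8.39e-07) also rose against TAP. Over the 49 introns with their fullest base at the shared edge, the level there was higher with Decapping Pyrophosphohydrolase than with TAP in 21 of 26 without and 17 of 23 with shared letters, with median ratios of 2.02 and 1.64.

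**Figure D3:**
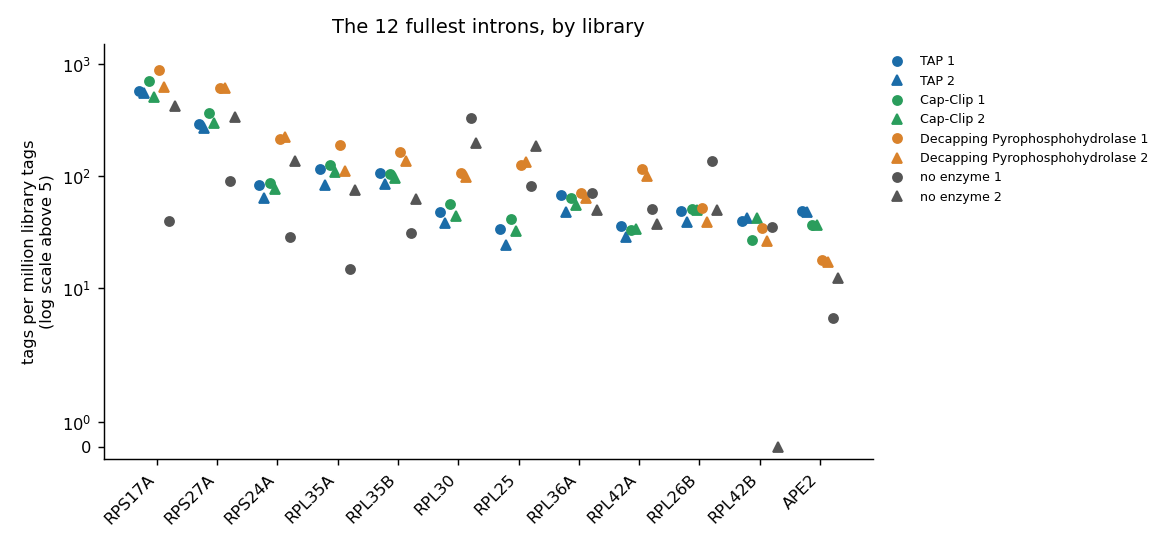
Level of the 12 fullest introns in CPM (log scale above 5) in each library, with circles for replicate 1 and triangles for replicate 2, in the order of their mean over the enzyme-treated libraries. Decapping Pyrophosphohydrolase lies above TAP and Cap-Clip in RPL25 and RPL42A, and below them in APE2.

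Leaving out the last 10 nt, an alternative added after the piles were seen, left 8 higher and 9 lower introns of 78 tested against TAP, and 6 higher and 7 lower against Cap-Clip. Over all 8849 features of that setting 2117 were higher and 2016 lower against TAP, and 1490 and 1615 against Cap-Clip. RPL30 and RPS22B, described below, and RPS27B remained higher against both. APE2, GLC7 and GCR1 were lower. APE2 had 17.9 and 16.96 CPM with Decapping Pyrophosphohydrolase, 36.3 and 36.6 with Cap-Clip and 48.8 and 48.1 with TAP, with a log2 fold change of -1.09 ± 0.19 against TAP (adjusted p = 9.33e-05) and -0.72 ± 0.20 against Cap-Clip (adjusted p = 0.00847). GLC7, the catalytic subunit of protein phosphatase 1, had 1.68 and 2.59 CPM with Decapping Pyrophosphohydrolase, 7.88 and 8.14 with Cap-Clip and 7.08 and 5.15 with TAP. Its log2 fold changes were -1.12 ± 0.42 against TAP and -1.44 ± 0.42 against Cap-Clip. GLC7 passed the filter on low counts through the TAP and Cap-Clip libraries alone, so no edgeR test is given for it. In both genes no library of Decapping Pyrophosphohydrolase reached one of the other enzymes, and DESeq2 did not call GLC7 against TAP (adjusted p = 0.199).

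Whether more introns fell or rose against no enzyme depended on the scaling, the tool and the lowest counts. With library totals and TAP, 7 of 88 introns were higher and 41 lower, where 37.6% and 47% of all 9236 features were called (84.6% in all). With Cap-Clip 9 were higher and 37 lower, beside 34.8% and 47% (81.7% in all), and with Decapping Pyrophosphohydrolase 8 were higher and 40 lower, beside 17.7% and 46.9% (64.6% in all). The median log2 fold change of the tested introns was -1.05 for TAP, -0.99 for Cap-Clip and -1.15 for Decapping Pyrophosphohydrolase. It lay between those of 5' regions and coding exons, at 2.21 and -3.91 with TAP. Some introns in these counts had a direction fixed by the filter on low counts. With Cap-Clip they included TAF14, LDO45 and APE2 among those higher, and ASC1, IMD4 and COF1 among those lower. TMM scaling turned the split round, to 47 higher and 12 lower with TAP, 50 and 9 with Cap-Clip, and 50 and 11 with Decapping Pyrophosphohydrolase, with medians of 1.25, 1.26 and 1.39. Over all 9236 features TMM called 4321 higher and 3798 lower, 4315 and 3704, and 4162 and 2918. With DESeq2 the counts were 41 higher and 6 lower, 32 and 6, and 34 and 5, of 251 introns. Over all 12015 features DESeq2 called 4522 and 2755, 4411 and 2530, and 4048 and 1721, a larger share higher than among introns. Where only positions with at least 2 tags counted, 54 introns were tested and the split was 14 and 7, 14 and 8, and 10 and 10, with medians of 0.89, 0.65 and 0.67. Over all 5898 features of that setting it was 3726 and 977, 3594 and 964, and 2749 and 748. Without no enzyme 1 the counts were 0 higher and 6 lower, 0 and 7, and 0 and 1 for the 3 enzymes in that order. Over all 9392 features they were then 649 and 1565, 488 and 1390, and 45 and 1143. Without no enzyme 2 the intron counts were 11 and 73, 11 and 71, and 13 and 72. Over all 10321 features they were then 4316 and 5384, 4173 and 5387, and 3288 and 5410.

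Several introns with starts in their interior or at their first bases had no tag or 1 tag with no enzyme. TAF14 encodes a subunit of transcription factor and chromatin remodelling complexes, and its 105-nt intron had 16.2 and 13.2 CPM with TAP, 13.4 and 18.4 with Cap-Clip, 6.15 and 9.77 with Decapping Pyrophosphohydrolase, and 0 with no enzyme. Set against 3 tags over both no-enzyme libraries, which is 3.67 CPM, it was at least 4-fold higher with TAP, 4.33-fold with Cap-Clip and 2.17-fold with Decapping Pyrophosphohydrolase. LDO45, a lipid droplet gene, likewise had no tag with no enzyme, and between 6.30 and 9.501 CPM with an enzyme, at least 1.73-, 2.06- and 2.47-fold higher for the 3 enzymes in the same order. The ATG44 intron had 7.19 to 14.25 CPM with an enzyme and 1 tag with no enzyme, and the ratio with TAP was 10.99 with a 95% counting interval of 1.95 to 437. TAF14 and LDO45 passed the filter on low counts through the enzyme-treated libraries alone, so no test is given for them.

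APE2 was the fullest intron with starts in the interior. It had 48.8 and 48.1 CPM with TAP and 36.3 and 36.6 with Cap-Clip, against 5.43 and 12.4 CPM with no enzyme (4 tags and 1 tag). Against no enzyme its log2 fold change was 2.95 ± 0.70 for TAP. It was 2.54 ± 0.71 for Cap-Clip, and 1.47 ± 0.76 where Decapping Pyrophosphohydrolase was used. APE2 passed the filter on low counts in this comparison through the enzyme-treated libraries alone, so no test against no enzyme is given for it. Once no enzyme 1 was left out, its log2 fold changes were 1.97, 1.56 and 0.48 for the 3 enzymes in the same order. Its 6 fullest bases lay between base 273 and base 316 of the 383-nt intron, before the TACTAAC at base 323. The fullest, an A after C at base 273, had 15.8 and 14.9 CPM with TAP, 12.6 and 12.7 with Cap-Clip, 2.79 and 2.59 with Decapping Pyrophosphohydrolase, and 0 and 12.4 with no enzyme. The intron as a whole held 214% of the level of the APE2 5' region, which was 15.9 CPM.

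YSF3, a subunit of the spliceosome's SF3b complex, had 32.03 and 24.6 CPM with TAP, 21.3 and 27.5 with Cap-Clip, 29.6 and 25.9 with Decapping Pyrophosphohydrolase, and 6.79 and 12.4 with no enzyme. It rose by 1.94 ± 0.70, 1.74 ± 0.71 and 1.88 ± 0.71 with the 3 enzymes in this order (log2 fold change ± SE, adjusted p = 0.0132, 0.0275 and 0.0223). Its 122-nt intron held both an end pile, at 15.8 to 21.4 CPM in the enzyme-treated libraries, and starts in its first bases. RPL35A rose by 1.86 ± 0.74, 2.08 ± 0.74 and 2.45 ± 0.74 with the 3 enzymes (adjusted p = 0.0231, 0.0129 and 0.00529). Without the last 10 nt its log2 fold changes were -0.10, -0.25 and -1.33. Without no enzyme 1 neither gene was called, with values for the 3 enzymes of 1.25, 1.04 and 1.15 in YSF3, and 0.45, 0.64 and 1.01 in RPL35A. With TAP 1 or Cap-Clip 2 left out YSF3 lost the call with that enzyme (adjusted p = 0.101 and 0.146), and RPL35A lost it without either library of TAP or of Cap-Clip (0.0666 to 0.201). With Decapping Pyrophosphohydrolase, YSF3 was not called without either library of that enzyme and RPL35A not without its library 1. Of 130 introns with at least 1 CPM in the intron and in the 5' region, 4 had a higher level than their 5' region: APE2, GCR1, RPS27A and YSF3, the last 2 of which carry end piles.

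GCR1 encodes an activator of glycolytic genes, and the first coding exon before its 751-nt intron has 8 nt. The intron had 25.4 and 28.05 CPM with TAP, 31.5 and 21.7 with Cap-Clip, 12.9 and 10.9 with Decapping Pyrophosphohydrolase, and 28.5 and 12.4 with no enzyme. It held 724% of the level of the GCR1 5' region, which was 3.003 CPM. Against no enzyme it was not called with TAP (log2 fold change 0.04 ± 0.54, adjusted p = 0.945), while with TMM it was higher (2.25, adjusted p = 2.43e-05), and it was lower with Decapping Pyrophosphohydrolase than with TAP (-0.76 ± 0.26, adjusted p = 0.0186) and Cap-Clip (-0.70 ± 0.27, adjusted p = 0.0458). DESeq2 did not call these (adjusted p = 0.0703 and 0.0885). Its fullest base with enzymes, base 32, had 3.91 and 1.14 CPM with TAP, 4.73 and 4.13 with Cap-Clip, 1.68 and 2.59 with Decapping Pyrophosphohydrolase, and 0 with no enzyme. No base of the intron held most of the tags, and no enzyme-treated library had a tag in the last 10 nt.

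**Figure D4:**
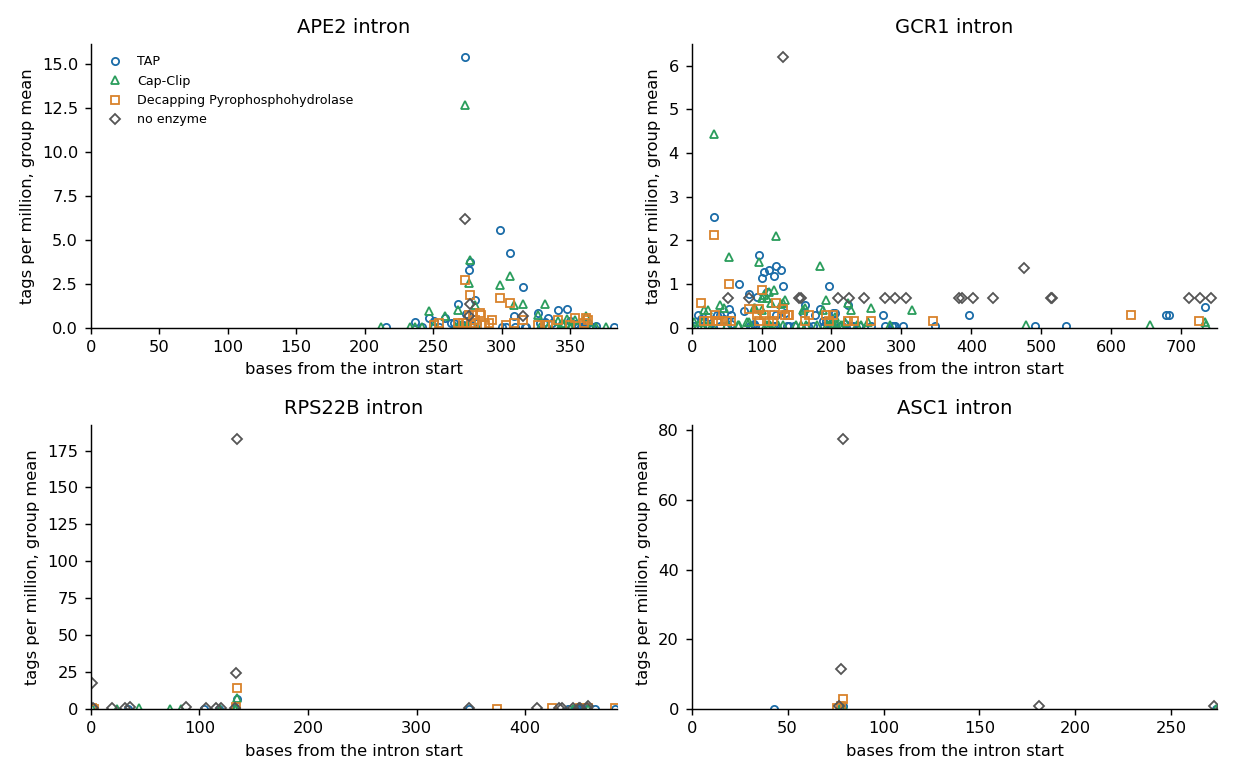
Level in CPM (mean of 2 libraries per group, 1 symbol per base with a tag) along 4 introns, by bases from the intron start. APE2 is fullest at base 273 with TAP and Cap-Clip, starts in GCR1 are spread, and the fullest bases of RPS22B (135) and ASC1 (79) are highest with no enzyme.

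Other interior starts, chosen after their values were seen, were those of MPT5 and RPL20B. In MPT5, which encodes an RNA-binding protein of the Puf family, base 494 had 2.79 and 2.86 CPM with TAP, 1.58 and 3.19 with Cap-Clip, 2.24 and 2.01 with Decapping Pyrophosphohydrolase and 0 with no enzyme, where 1 tag would be 1.36 CPM in no enzyme 1. In RPL20B base 42 had 6.52 and 3.43, 5.52 and 6.61, and 3.35 and 2.87 CPM with the 3 enzymes, and 0 and 12.4 with no enzyme, where 12.4 CPM is 1 tag. The YBR090C intron averaged 14.2 CPM with an enzyme, and it overlaps the 200 nt before the start codon of NHP6B on the same strand, so its tags may belong to that gene.

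Starts at the first bases of introns fell at particular letters. Summed over introns, base 3, the A of the starting GTA, had 161 and 139 CPM with TAP, 140 and 152 with Cap-Clip, 98.4 and 90.0 with Decapping Pyrophosphohydrolase, and 9.51 and 86.7 with no enzyme. Bases 5 and 7 followed, with means over the enzyme-treated libraries of 32.4 and 29.7 CPM, while bases 2, 4 and 6 had 0.922, 4.47 and 0.894. At base 1, the position that is joined to the branch site, the libraries had 14.7 to 20.5 CPM with an enzyme, against 148 and 24.8 CPM with no enzyme. RPS10A, RPL26B and RPS22B held 18, 12 and 7 tags there in no enzyme 1.

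Several named positions lay at base 3. RPL42B had 13.2 and 9.16 CPM there with TAP, 11.03 and 12.98 with Cap-Clip, 9.501 and 6.32 with Decapping Pyrophosphohydrolase, and 0 with no enzyme. RPL42A, YSF3 and RPL27B at base 3 and RPL36A at base 7 had no tag with no enzyme either, and between 0.575 and 14.98 CPM with an enzyme. These positions passed the filter on low counts through the enzyme-treated libraries alone, so no test is given for them. Of 46 intron positions tested among 23568, 12 were higher and 16 lower with TAP, 11 and 16 with Cap-Clip, and 4 and 12 with Decapping Pyrophosphohydrolase. Over all positions 64.1%, 62.5% and 40.1% were called higher and 9.56%, 9.19% and 5.96% lower for these enzymes. The intron counts include positions whose direction the filter had fixed. Among those called higher with TAP and Cap-Clip are the base 3 and base 7 positions above. Among those called lower are the last base of RPL26A and base 79 of ASC1, which passed through the no-enzyme libraries alone. With TMM the counts were 0 higher and 20 lower, 0 and 20, and 4 and 14. Over all 23568 positions TMM left 1179 higher and 2644 lower, 1154 and 2596, and 1015 and 1619. Without no enzyme 1, no intron position was higher with any enzyme, beside 161, 129 and 0 of all 30565 positions.

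**Figure D5:**
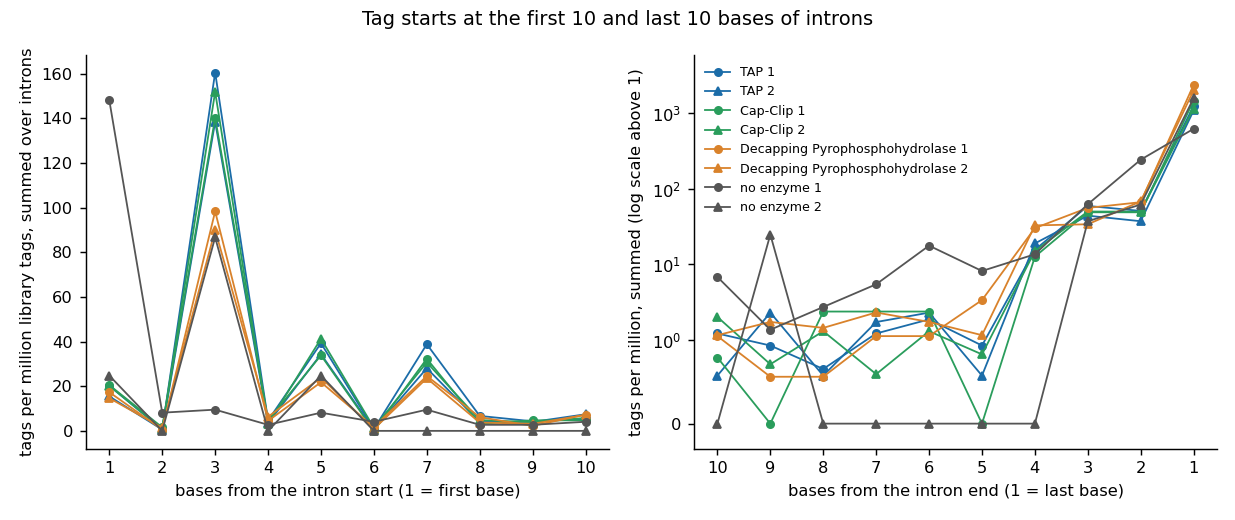
CPM summed over introns at each of the first 10 bases (left) and the last 10 bases (right, log scale above 1, last base at the right edge), by library, with circles for replicate 1 and triangles for replicate 2. On the left, base 3 stands out with 90.0 to 161 CPM with enzymes and 9.51 in no enzyme 1, which is highest at base 1, and on the right the last base has 1093 to 2386 CPM with enzymes.

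The base composition of the starts followed their place. Transcription in yeast starts mostly at a purine that follows a pyrimidine, and 23.8% of intron bases are such a step. In the interior 78.6% and 80.7% of tags started at this step with TAP, 77.1% and 77.6% with Cap-Clip, 64.9% and 64.4% with Decapping Pyrophosphohydrolase, and 22.8% and 48.7% with no enzyme. All enzyme-treated libraries lay above both no-enzyme libraries, and no enzyme 1 was close to the share of bases. In the first 10 nt the shares were 87.8 to 96.2% with an enzyme, 17.7% in no enzyme 1 and 81.8% in no enzyme 2. The last of these rests on 4.85% of the 227 intron tags of that library. The share of bases was not computed for the first 10 nt alone, where GTATGT fixes the first letters of most introns. In the last 10 nt the shares of tags were 2.81 to 4.30% with an enzyme, where most piles begin at a letter fixed by the junction. They were 25.8% and 3.62% with no enzyme. In 5' regions the shares were 80.8 to 91.0% with an enzyme, and in coding exons 27.5 to 37.4%.

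Over all intron tags the share at this step therefore depended on the piles. It was 37.8 ± 0.103% in the TAP, 35.2 ± 4.63% in the Cap-Clip and 20.3 ± 0.977% in the Decapping Pyrophosphohydrolase libraries, against 23.1 ± 0.234% in those with no enzyme (SD, n = 2 in each group). The differences from no enzyme were 14.8, 12.1 and -2.76 percentage points (exact permutation p = 0.33 each, the smallest possible). Without the first and last 10 nt the difference for Decapping Pyrophosphohydrolase was 28.9 points.

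Per length, intron interiors held fewer tags than the coding exons of the same genes. Interiors had 12.8 and 10.7 CPM per kb with TAP, 11.04 and 12.4 with Cap-Clip, 11.2 and 10.3 with Decapping Pyrophosphohydrolase, and 55.2 and 16.2 with no enzyme. This was 51.96% and 47.1% of the level per kb of coding exons with TAP, 42.5% and 42.6% with Cap-Clip, 25.2% and 24.3% with Decapping Pyrophosphohydrolase, and 18.1% and 16.04% with no enzyme. The groups did not overlap in this ratio. The 2 levels are not like with like, since interiors leave out the end piles while coding exons may hold those at their first base. Over 26 introns these exon piles summed to 1967 and 1869 CPM with TAP, and 2251 and 1929 with Cap-Clip. They summed to 2713 and 2874 CPM with Decapping Pyrophosphohydrolase, and 732 and 1982 with no enzyme. Their part in the ratio was not tested. In introns with TACTAAC, the stretch from that motif to the last 10 nt made up 15.5% of interior bases and held 7.16 to 10.3% of interior tags with an enzyme, and 3.85% and 10.3% with no enzyme.

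Introns that host a small nucleolar RNA were lower with each enzyme. The 8 hosts summed to 22.9 ± 8.54 CPM in the enzyme-treated libraries (SD, n = 6), against 710 and 124 CPM with no enzyme. ASC1 and IMD4 passed the edgeR filter through the no-enzyme libraries alone, which fixed their direction, so no test is given for them. EFB1 and RPS22B, which also passed it through enzyme-treated libraries, fell with each enzyme, where 47%, 47% and 46.9% of all features were lower. With TMM 4, 3 and 3 of these 4 hosts were called lower, beside 3798, 3704 and 2918 of all 9236 features. The TMM counts include ASC1 and IMD4, whose direction the filter had fixed, so they show nothing about these 2 hosts. With DESeq2 it was 2 of the 8 with each enzyme, beside 2755, 2530 and 1721 of all 12015 features. ASC1, which encodes a ribosome-bound scaffold protein and hosts SNR24, had 2.42 and 0 CPM with TAP, 1.58 and 0.826 with Cap-Clip, 4.47 and 3.16 with Decapping Pyrophosphohydrolase, and 158 and 24.8 with no enzyme. Its log2 fold changes were -5.96 ± 0.63, -6.92 ± 0.71 and -5.01 ± 0.62 for the 3 enzymes in this order. Without no enzyme 1 they were -3.63, -4.68 and -2.76. Without TAP 1, the remaining TAP library has no tag in ASC1, so the fitted -11.1 is no measure of size. RPS22B, which hosts SNR44, had 10.5 and 6.30 CPM with TAP, 10.3 and 8.02 with Cap-Clip, 16.8 and 19.3 with Decapping Pyrophosphohydrolase, and 405 and 74.3 with no enzyme, with log2 fold changes of -4.94 ± 0.57, -4.97 ± 0.59 and -3.93 ± 0.55 (adjusted p = 3.41e-08, 7.45e-08 and 4.18e-07). These were -2.97, -3.12 and -2.02 without no enzyme 1, the last no longer called (adjusted p = 0.0642). Both introns were higher with no enzyme in each of the 2 libraries.

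Most tags in these introns lay at the edge of the annotated RNA. With an enzyme 52.35 to 73.7% of the tags in the 8 host introns started 1 or 2 nt before the annotated start of the small nucleolar RNA, against 454 of 523 tags (86.8%) in no enzyme 1 and 7 of 10 in no enzyme 2. In RPS22B base 135 is 1 nt before SNR44 and had 7.45 and 5.72 CPM with TAP, 8.67 and 5.55 with Cap-Clip, 12.9 and 15.8 with Decapping Pyrophosphohydrolase, and 317 and 49.6 with no enzyme. In ASC1 base 79 is 1 nt before SNR24 and had 0 to 3.35 CPM with an enzyme, against 130 and 24.8 CPM with no enzyme. EFB1, a translation elongation factor gene that hosts SNR18, had 40.8 CPM within 2 nt of it in no enzyme 1, and TEF4, which hosts SNR38, had 21.7 CPM. At 1 or 2 nt, tags of the small nucleolar RNA itself cannot be told apart from tags of the intron.

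Other introns that fell hold no small nucleolar RNA. YRA1, an mRNA export factor whose intron takes part in control of its own level, had 7.26 and 5.72 CPM with TAP, 5.52 and 7.43 with Cap-Clip, 4.47 and 4.02 with Decapping Pyrophosphohydrolase, and 163 and 49.6 with no enzyme, with log2 fold changes of -4.25 ± 0.50, -4.22 ± 0.51 and -4.93 ± 0.55 (adjusted p = 3.95e-08, 8.21e-08 and 7.6e-08). They were -2.84, -2.81 and -3.56 without no enzyme 1 and still called. RPS13 had 5.72 to 8.67 CPM with an enzyme against 171 and 37.2 with no enzyme. RPL22B, whose protein acts on the splicing of its own RNA, had 5.15 to 11.2 CPM with an enzyme against 134.5 and 24.8. These 2 fell by 4.24 ± 0.51 and 4.21 ± 0.53 on the log2 scale with TAP, by 4.04 ± 0.52 and 3.78 ± 0.53 with Cap-Clip, and by 3.99 ± 0.52 and 3.49 ± 0.52 with Decapping Pyrophosphohydrolase (adjusted p at most 1.03e-06). Without no enzyme 1 neither was called with any enzyme, with log2 fold changes for the 3 enzymes of -2.39, -2.25 and -2.18 in RPS13, and -2.13, -1.76 and -1.45 in RPL22B. DESeq2 did not call RPL22B with Decapping Pyrophosphohydrolase (adjusted p = 0.112). In no enzyme 1 the interior held 163 CPM of YRA1, 168 of RPS13 and 134.5 of RPL22B, nearly all of the tags in these introns.

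Regulated or retained introns, a list of genes whose splicing is known to be controlled, had 11 introns in 10 genes. Genes were matched by symbol, and HEH1 and MTR2 of the list matched none of the introns here. Of the 6 tested, 4 were lower and 0 higher with each enzyme against no enzyme, where 47%, 47% and 46.9% of all features were lower, but with TMM 2 were lower and 2 higher with TAP and with Cap-Clip, and 2 lower and 4 higher with Decapping Pyrophosphohydrolase. DESeq2 tested all 11, of which 2 were lower and 1 higher with TAP and with Cap-Clip, and 1 lower and 0 higher with Decapping Pyrophosphohydrolase. For the 3 enzymes TMM called 3798, 3704 and 2918 of all 9236 features lower, and DESeq2 2755, 2530 and 1721 of 12015. Higher were 4321, 4315 and 4162 with TMM, and 4522, 4411 and 4048 with DESeq2. RPL30, whose protein binds its own transcript and blocks splicing, had 48.1 and 37.8 CPM with TAP, 56.75 and 43.9 with Cap-Clip, 106 and 96.9 with Decapping Pyrophosphohydrolase, and 326 and 198 with no enzyme. It fell by 2.65 ± 0.55 on the log2 scale with TAP (adjusted p = 9.7e-05, 0.0663 with TMM and 0.226 with DESeq2) and was 1.58 ± 0.18 higher with Decapping Pyrophosphohydrolase than with TAP (adjusted p = 3.01e-07). Its last base alone had 262 and 198 CPM with no enzyme. RPS14B had 22.3 to 28.7 CPM with an enzyme and 24.4 and 86.7 with no enzyme, and was not called.

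Introns of ribosomal protein genes held most intron tags. Ribosomal protein introns summed to 2310 ± 518 CPM over the enzyme-treated libraries (SD, n = 6), against 3648 and 2490 with no enzyme. Of their 66 tested introns 34 fell and 1 rose with TAP, 30 fell and 2 rose with Cap-Clip, and 33 fell and 4 rose with Decapping Pyrophosphohydrolase, with medians of -1.27, -1.10 and -1.31, beside 47%, 47% and 46.9% of all features called lower. With TMM this turned round, to 32 higher and 8 lower with TAP, 35 and 6 with Cap-Clip, and 36 and 7 with Decapping Pyrophosphohydrolase, and DESeq2 gave 21 and 4, 15 and 4, and 21 and 3. For the 3 enzymes TMM called 4321, 4315 and 4162 of all 9236 features higher, and DESeq2 4522, 4411 and 4048 of 12015. The 190 introns of all other genes summed to 295 ± 46.6 CPM, against 823 and 322 with no enzyme, and of 22 tested 6 rose and 7 fell with TAP, 7 and 7 with Cap-Clip, and 4 and 7 with Decapping Pyrophosphohydrolase, where 37.6%, 34.8% and 17.7% of all features rose. With TMM 15 rose and 4 fell, 15 and 3, and 14 and 4, and with DESeq2 20 and 2, 17 and 2, and 13 and 2 of 160.

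Meiotic genes had 14 introns in 13 genes, 5 of them with any tag, and a sum of 0.458 CPM with an enzyme, and no member passed the filter of the edgeR test. DESeq2 without that filter called 0. Of 6 introns of cytoskeleton genes only COF1 (cofilin) passed the edgeR filter. It did so through the no-enzyme libraries alone, so no test is given for it. COF1 had 0 to 4.47 CPM with an enzyme against 10.9 and 12.4 with no enzyme, where 12.4 is 1 tag. With TMM its log2 fold change with Decapping Pyrophosphohydrolase was 1.01. DESeq2 did not call COF1 and called 1 of the 6, PFY1, which encodes profilin, higher with each enzyme. PFY1 had no tag with no enzyme. Set against 3 tags over both no-enzyme libraries, it was at least 0.848-fold the no-enzyme level with TAP. The same bound was 1.2-fold with Cap-Clip and 0.887-fold with Decapping Pyrophosphohydrolase. Of 7 introns of ubiquitin genes only UBC12 passed the edgeR filter. It did so through the enzyme-treated libraries alone, so no edgeR test is given for it. UBC12 had 1 tag with no enzyme, and log2 fold changes of 1.70, 2.18 and 2.10. With TMM these were 3.88, 4.36 and 4.61, and DESeq2 called UBC12 higher with each enzyme. The ratio of pooled tags with TAP was 3.60, with a counting interval of 0.62 to 145. For Cap-Clip it was 4.86 (0.839 to 195), and for Decapping Pyrophosphohydrolase 4.50 (0.746 to 184). Each of these intervals includes 1. The 10 introns of secretion genes summed to 9.86 ± 2.18 CPM (SD, n = 6) against 29.9 and 12.4 with no enzyme, and none passed the filter on low counts.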

How the data were processed

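The authors' deposited table holds raw counts of 5' ends per position and strand in 8 columns, 1 per library. Per the labels' protocols reads had 50 nt, with an 8-nt random barcode. Per the submitters' processing notes Novoalign (version not given) and R64 (sacCer3) were used. How junction reads and equal barcodes were treated is not given in the sources used here. Each position was assigned to 1 feature: introns, 5' regions, coding exons and noncoding genes. Counts per feature and per position were tested over the whole table with edgeR 4.0.16 (quasi-likelihood, filterByExpr, Benjamini-Hochberg). Library totals were used against no enzyme and TMM between enzymes. CPM values use library totals. DESeq2 1.42.0 was an alternative, and shares were compared with exact permutation tests (scipy 1.17.1). The scripts were tested on simulated data.

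Named introns were the 12 fullest, up to 8 per direction against no enzyme and 5 between enzymes with the largest fold change among calls with at least 1 CPM, the fullest 3 of each list, all small nucleolar RNA hosts and GCR1. Named positions were the 15 fullest and up to 5 per direction. Members and lists were chosen with earlier results of these data known. The labels do not say that a number marks 1 culture, and replicates of 1 group may share technical error only. Over all features, replicates of a group differed by more than sampling noise (chi-square per degree of freedom at least 6.29). Alternatives were scaling, tool, filters, intron ends, small nucleolar RNA hosts, single tags, a replicate term and leaving out each library.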

Additional observations from a re-analysis of the deposited data

How the results depend on the processing

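The number of introns called either way against no enzyme was 48 for TAP, 46 for Cap-Clip and 48 for Decapping Pyrophosphohydrolase. It was 82, 79 and 80 with no filter on low counts, and 21, 22 and 20 where only positions with at least 2 tags counted, where as many or more rose than fell (14 and 7, 14 and 8, 10 and 10) and the median log2 fold changes turned positive. Leaving out single libraries gave 6 to 84, 7 to 82 and 1 to 85 (lowest without no enzyme 1, highest without no enzyme 2), and for single positions 3 to 61, 2 to 60 and 0 to 54. Decapping Pyrophosphohydrolase against TAP gave 25, and 14 with DESeq2, 15 with at least 2 tags, 13 without the first and last 10 nt, and 18 to 29 without single libraries. Against Cap-Clip it gave 23, and 12, 12, 9 and 11 to 21 (lowest without Cap-Clip 2) under these settings, and 13 without only the last 10 nt. The cause was not tested beyond the fewer tags or introns that these settings leave.

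The correlations of replicate differences between groups lay between -0.107 and 0.0936. Such low values cannot show that libraries of the same number are unpaired, and the main tests had no replicate term. With the replicate block the calls were 46, 40 and 40 against no enzyme, 0, 21 and 25 between enzymes, and 26, 22 and 16 for positions. The crossed pairing, added after seeing the data, gave 42 for Cap-Clip against no enzyme.

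Differences in the intron share that changed sign were those of Decapping Pyrophosphohydrolase from no enzyme (0.0658 points with at least 2 tags, -0.13 to 0.0365 without single libraries), of Cap-Clip from TAP (-0.000213 without the ends, -0.00343 to 0.0313 without single libraries) and of Decapping Pyrophosphohydrolase from TAP and Cap-Clip (-0.00592 and -0.00571 without the ends). The pyrimidine-purine share of Decapping Pyrophosphohydrolase minus no enzyme was 22.7 points over distinct positions and 28.9 without the ends. Log2 fold changes turned round in RPL35A against no enzyme (TAP -0.32 and -0.10, Cap-Clip -0.50 and -0.25, Decapping Pyrophosphohydrolase -1.50 and -1.33, without both ends and without the last 10 nt). They also turned round in RPS24A (-0.053 and -0.0009 against TAP, -0.39 and -0.45 against Cap-Clip) and RPL25 (-0.048 against TAP without both ends, -0.13 and -0.019 against Cap-Clip). GCR1 with TAP against no enzyme was -0.12 without no enzyme 2 and 1.085 without no enzyme 1. Depth limits the no-enzyme side, where 1 tag of no enzyme 2 is 12.4 CPM.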

Other observations

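Some positions were highest in the no-enzyme libraries. In RPL26A, whose pile with enzymes sits at the fourth-last base, the last base of the intron had 2.05 and 1.14 CPM with TAP, 1.58 and 3.78 with Cap-Clip, 1.68 and 1.15 with Decapping Pyrophosphohydrolase, and 58.4 and 49.6 with no enzyme. Both no-enzyme libraries lay above all others there. The position passed the filter on low counts through the no-enzyme libraries alone, so no test is given for it. In RPS6A the second-last base, which is the shared edge, had 0.287 to 5.15 CPM with an enzyme and 96.4 and 12.4 with no enzyme. In the interior of YRA1 base 262 had 0 to 1.77 CPM with an enzyme, against 31.2 and 12.4 CPM with no enzyme.

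The 8 introns of 57 whose fullest base was not at the shared edge included RPS27B and RPS30B, both at the second base of the next exon, and RPL2A and RPL2B, both at the seventh. The HAC1 intron had 7.64 and 5.15 CPM with TAP, 4.73 and 9.09 with Cap-Clip, 6.15 and 3.45 with Decapping Pyrophosphohydrolase, and 58.4 and 24.8 with no enzyme, so both no-enzyme libraries lay above the others.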
